A study of Saccharomyces cerevisiae with 10 samples.

Results

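The genes described here are 10 enzymes of budding yeast, *Saccharomyces cerevisiae*, that stand at the entry and at the exit of sugar fermentation. They are the hexose kinases HXK1, HXK2 and GLK1, the pyruvate decarboxylases PDC1, PDC5 and PDC6, and the alcohol dehydrogenases ADH1, ADH2, ADH3 and ADH5. They were taken by name from the probe annotation as members of these enzyme families, and each is represented by 1 of the 7744 probe rows. The rule itself uses no measured value, but the genes were chosen for description with earlier results of these data known. Of the 10, 9 had a value on all 10 arrays and were tested among 5415 genes. ADH3 had a value on 1 array only and was not tested.

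Hexose kinases add a phosphate to glucose as it enters the cell, which commits it to glycolysis. In fermenting yeast the pyruvate made by glycolysis is split by pyruvate decarboxylase into carbon dioxide and acetaldehyde, and alcohol dehydrogenase reduces the acetaldehyde to ethanol, which returns the NAD+ that glycolysis needs. Each step is served by several isoenzymes whose genes are used differently: HXK2, PDC1 and ADH1 are the main forms in cells growing on ample glucose, while HXK1, GLK1 and ADH2 are known as genes held down by glucose.

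Total RNA of 5 mutation-accumulation (MA) lines was hybridised to 2-colour arrays. The lines are MA-A8, MA-A4, MA-A3, MA-A1 and MA-A0. In mutation accumulation a strain is carried through many tight bottlenecks, so that new mutations are kept or lost largely by chance. Every pair was put on a single array, the line named first in Cy5 and the other in Cy3, which gives 10 arrays in all and for each line 2 in Cy5 and 2 in Cy3. No label gives an ancestor, a genotype, a ploidy, a medium, a growth stage or a number of generations, and none says whether a line's 4 hybridisations used separate cultures. The p-values therefore measure the spread between hybridisations, and a difference does not show which line had changed.

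Deposited values were taken as log2(Cy5/Cy3), and the arrays were centred on their medians. Neither the logarithm's base nor the direction is stated, so with the opposite direction every "higher" below would read "lower". A line is described by how far it lay from the average of the other 4, with the standard error (SE) from a limma fit of all 10 arrays that also holds a dye effect. A shift in 1 line therefore enters the values of the other lines in diluted form with the opposite sign. A gene passed where the Benjamini-Hochberg adjusted p of limma's moderated test, taken over all 5415 genes, was below 0.05.

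One array stood apart from its label. Over all genes, exchanging the lines of the array of MA-A0 with MA-A8 lowered the residual sum of squares of the fit to 91.9% of that with the labelled lines, while doing so for any other single array raised it to between 118% and 192%. Calls lost with this array left out, or with its lines exchanged, can be read from the values below. Values of MA-A0 and MA-A8 that did not pass moved most: without it, HXK2 in MA-A0 was -0.15 in place of 0.19, and PDC1 was -0.19 in place of 0.17 in MA-A0 and 0.46 in place of 0.10 in MA-A8.

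Among the 9 genes tested, HXK1, GLK1 and ADH5 differed among the 5 lines. This is 3 of 9 genes, against 18.7% of all genes tested, and 4 of the 9 had an unadjusted p below 0.05. The span between the highest and the lowest line was 1.36 for HXK1 (limma moderated F test, adjusted p = 0.00196), 0.75 for GLK1 (adjusted p = 0.0141) and 0.73 for ADH5 (adjusted p = 0.0103), all on the log2 scale. If the base is 2, the HXK1 span is 2.57-fold. HXK2 spanned 0.72 but did not pass (adjusted p = 0.109). GLK1 missed the threshold without the array of MA-A1 with MA-A4 (adjusted p = 0.0747) and ADH5 without that of MA-A8 with MA-A3 (adjusted p = 0.108), while HXK2 passed without that of MA-A0 with MA-A4 (adjusted p = 0.0193). As in any bulk measurement, a change in the make-up of the culture and a change in RNA per cell cannot be told apart.

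**Figure D1:**
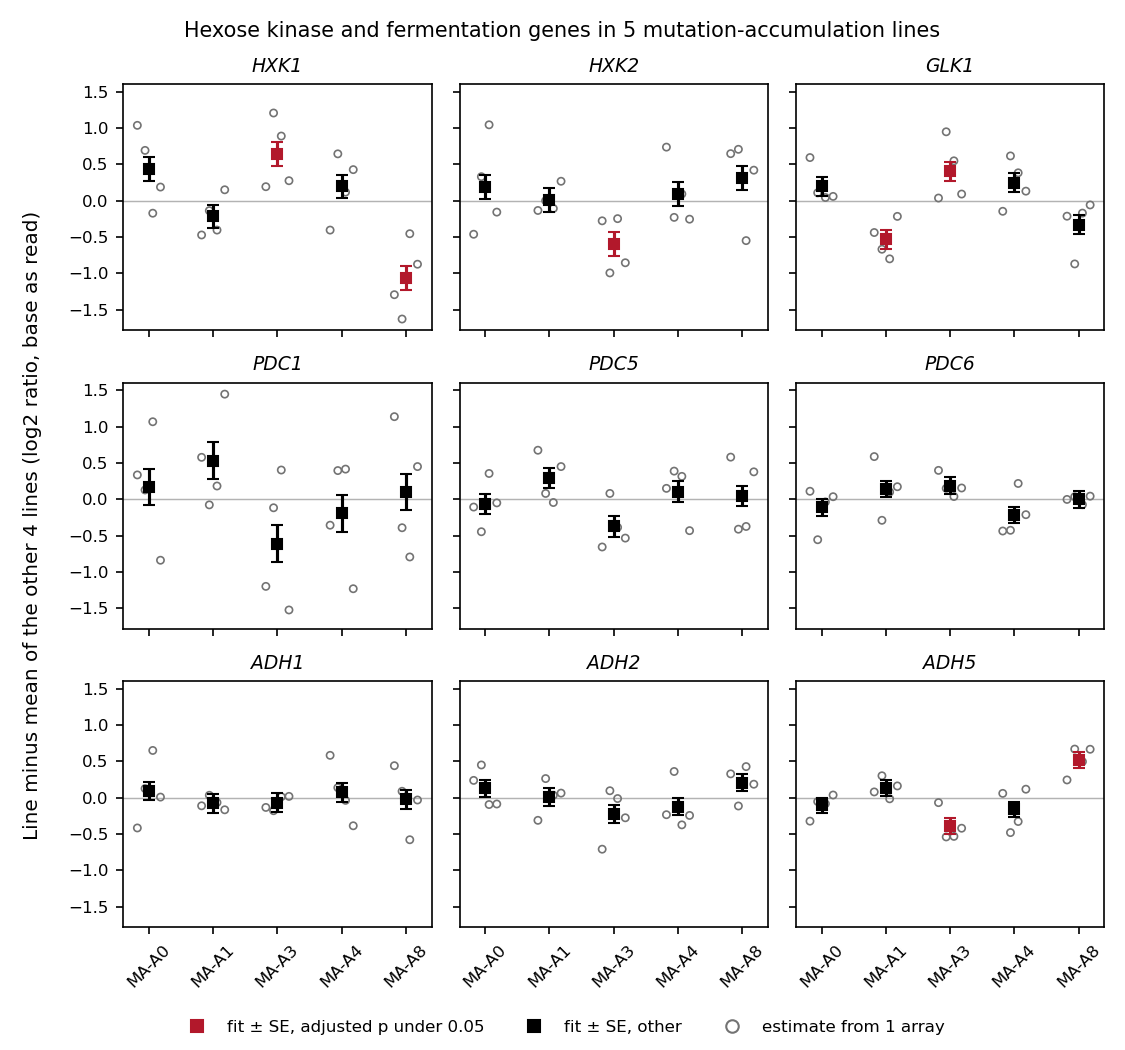
Each line minus the mean of the other 4 lines (y axis, log2 ratio, base as read) for the 9 genes tested. Squares with bars are fitted values ± SE, red where the adjusted p was below 0.05, and open circles are the estimates from single arrays. HXK1 lay lowest in MA-A8 (-1.06) and highest in MA-A3 (0.64), ADH5 ran the other way (0.52 in MA-A8 and -0.39 in MA-A3), and ADH1 lay between -0.08 and 0.09 in every line.

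HXK1, the hexokinase known as the minor form on glucose, showed the widest span of the group. On the 4 arrays that carried MA-A8, its centred log2 ratio over the partner line was -2.04 against MA-A3, -0.97 against MA-A4, -0.75 against MA-A1 and -0.49 against MA-A0. MA-A8 thus had the lower HXK1 signal on 4 of 4 arrays, and did so in both dyes. The fitted difference of MA-A8 from the other lines was -1.06 ± 0.16 (adjusted p = 0.00284). In MA-A3 the ratio over the partner was 2.04 against MA-A8, 0.22 against MA-A4, 0.17 against MA-A1 and 0.14 against MA-A0. The MA-A3 side was the brighter on all 4 arrays (on 3 of 4 with the dye effect removed), by a wide margin only against MA-A8. The fitted difference was 0.64 ± 0.16 (adjusted p = 0.0113). The array of MA-A1 with MA-A0 gave -0.95, that of MA-A1 with MA-A4 gave -0.49 and that of MA-A0 with MA-A4 gave 0.45.

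The lines ran MA-A3, MA-A0, MA-A4, MA-A1, MA-A8 from the highest HXK1 to the lowest, and no neighbours in that order passed the test. MA-A8 minus MA-A1 was -0.68 ± 0.20 (95% interval -1.11 to -0.24, limma, adjusted p = 0.106), an interval that excludes 0 before adjustment over all genes, and the intervals of the other neighbours included 0. Further apart, MA-A8 minus MA-A3 was -1.36 ± 0.20 (adjusted p = 0.000407), MA-A0 minus MA-A8 was 1.20 ± 0.20 (adjusted p = 0.019), MA-A4 minus MA-A8 was 1.01 ± 0.20 (adjusted p = 0.0207) and MA-A3 minus MA-A1 was 0.69 ± 0.20 (adjusted p = 0.0341). MA-A0 minus MA-A8 was 1.59 (adjusted p = 0.0086) without the array of these lines, and 0.75 (adjusted p = 0.281) with that array's lines exchanged. HXK1 in MA-A8 passed whichever single array was left out and reached -1.31 (adjusted p = 0.000665) without the array of MA-A0 with MA-A8, but with that array's lines exchanged it was -0.78 (adjusted p = 0.196). HXK1 in MA-A3 no longer passed without the array of MA-A8 with MA-A3 (0.42, adjusted p = 0.139) or without that of MA-A3 with MA-A0 (0.54, adjusted p = 0.115).

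HXK2, the hexokinase that predominates on glucose and that also takes part in glucose repression, lay lowest in MA-A3. There the ratio of MA-A3 over its partner was -1.45 against MA-A8, -0.70 against MA-A4, -0.28 against MA-A1 and 0.06 against MA-A0. With the dye effect removed, MA-A3 was the lower on 4 of 4 arrays, with ratios of -1.04 to -0.29. The arrays without MA-A3 or MA-A8 gave 0.34 for MA-A1 over MA-A4, 0.15 for MA-A1 over MA-A0 and -0.03 for MA-A0 over MA-A4. The fitted difference was -0.59 ± 0.17 (limma, adjusted p = 0.0215), and MA-A8 minus MA-A3 was 0.72 ± 0.21 (adjusted p = 0.0269). In MA-A8 the fitted difference was 0.31 ± 0.17 (adjusted p = 0.337), on arrays that did not run one way: HXK2 of MA-A8 was brighter by 1.45 against MA-A3 and by 0.74 against MA-A1, near 0 against MA-A4 at 0.04, and -1.0 against MA-A0. Without the array of MA-A0 with MA-A8, HXK2 passed in MA-A8 at 0.65 (adjusted p = 0.0103) and passed the F test (adjusted p = 0.00158). In MA-A3 it no longer passed without the array of MA-A8 with MA-A3 (-0.43, adjusted p = 0.177) or that of MA-A3 with MA-A1 (-0.49, adjusted p = 0.19).

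GLK1 encodes glucokinase, which phosphorylates glucose but not fructose. It lay lowest in MA-A1, where the ratio over the partner was -0.84 against MA-A3, -0.72 against MA-A8, -0.39 against MA-A4 and -0.17 against MA-A0. MA-A1 was the lower on all 4 arrays, and the fitted difference was -0.53 ± 0.13 (limma, adjusted p = 0.0397). In MA-A3 the ratio over the partner was 0.84 against MA-A1, 0.68 against MA-A8, 0.62 against MA-A0 and -0.51 against MA-A4, and the fitted difference was 0.41 ± 0.13 (adjusted p = 0.0444). Both calls lay close to the threshold. GLK1 in MA-A1 no longer passed on leaving out any of the 4 arrays with MA-A1 (adjusted p = 0.108 to 0.298) or that of MA-A3 with MA-A0 (adjusted p = 0.0646). In MA-A3 it was 0.19 (adjusted p = 0.426) without the array of MA-A8 with MA-A3, and missed the threshold without any of 5 others (adjusted p = 0.0503 to 0.247). The array of MA-A4 with MA-A8 gave 0.71, that of MA-A0 with MA-A8 gave 0.64 and that of MA-A0 with MA-A4 gave 0.62, all with the Cy5 line brighter. Between lines, GLK1 passed for MA-A3 minus MA-A1 (0.75 ± 0.16, adjusted p = 0.00705) and MA-A8 minus MA-A3 (-0.59 ± 0.16, adjusted p = 0.0225). No neighbours in the order MA-A3, MA-A4, MA-A0, MA-A8, MA-A1 passed, although the interval of MA-A0 minus MA-A8 excluded 0 before adjustment (0.42, 95% interval 0.07 to 0.78, adjusted p = 0.45).

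The fitted differences of HXK1 and HXK2 had opposite signs in both MA-A3 and MA-A8. In MA-A8 only HXK1 passed, and HXK2 did not (0.31 ± 0.17, limma, adjusted p = 0.337). HXK1 minus HXK2 was 1.24 in MA-A3 and -1.37 in MA-A8, each with an ordinary SE of 0.42. On the single array of MA-A8 over MA-A3 this difference was -3.49 (-2.04 for HXK1 and 1.45 for HXK2), with the dye effect still included. With the dye effect removed, HXK1 was at -1.82 and HXK2 at 1.04 on that array. In MA-A3 GLK1 lay with HXK1, 1.0 ± 0.34 above HXK2. In MA-A8 HXK1 lay below GLK1 as well, by -0.74 ± 0.13. Across the 10 arrays, which share lines and so are not independent, the centred ratios of HXK1 had a Pearson correlation of 0.79 with those of GLK1 and -0.62 with those of HXK2.

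**Figure D2:**
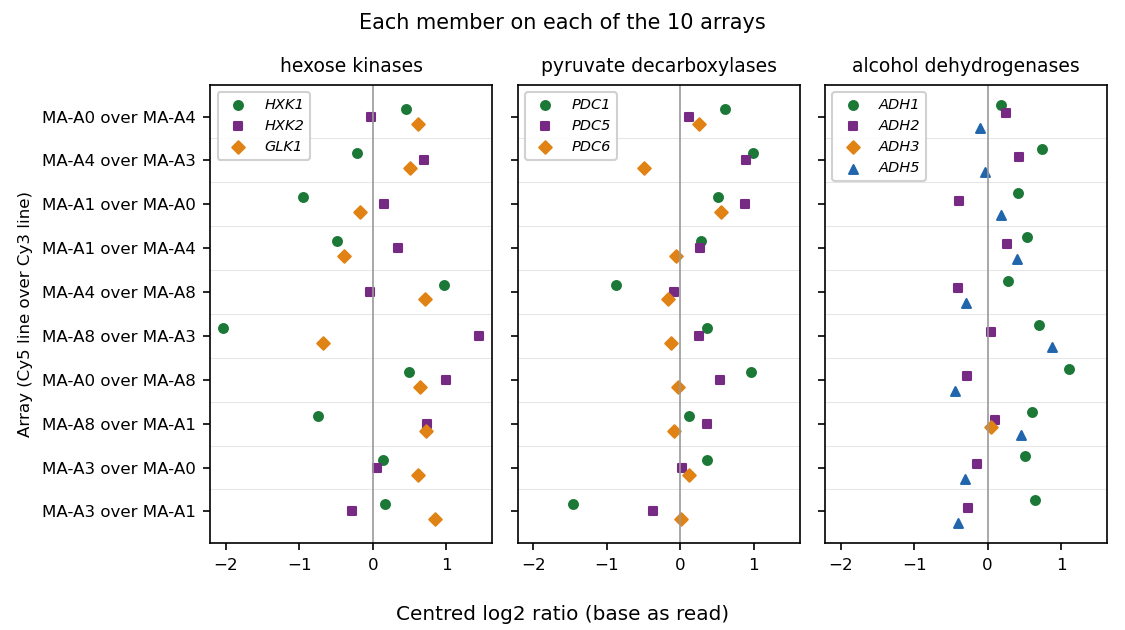
Centred log2 ratio (x axis, base as read) of each gene on each of the 10 arrays (y axis, Cy5 line over Cy3 line), by enzyme family. The dye effect is not removed from these ratios. On the array of MA-A8 over MA-A3, HXK1 stood at -2.04 and HXK2 at 1.45. ADH1 lay above 0 on 10 of 10 arrays, and ADH3 has a single point.

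None of the pyruvate decarboxylases passed, whether in the F test or in any line or pair. PDC1, the main pyruvate decarboxylase, had the second-widest span of the 9 genes, 0.91, but also one of the noisiest records: its residual standard deviation of 0.79 lay at the 99.5th percentile of all genes, whose median was 0.21. For MA-A1 its ratio over the partner was 1.46 against MA-A3, 0.51 against MA-A0, 0.28 against MA-A4 and -0.12 against MA-A8. For MA-A3 it was -1.46 against MA-A1, -0.99 against MA-A4, -0.36 against MA-A8 and 0.37 against MA-A0. The remaining arrays gave 0.96 for MA-A0 over MA-A8, 0.61 for MA-A0 over MA-A4 and -0.88 for MA-A4 over MA-A8. The arrays with MA-A0 would place MA-A8 below MA-A4, while the array that compared these lines directly placed it above. The former include the array of MA-A0 with MA-A8, which stood apart from its label. With the lines of that array exchanged, they too would place MA-A8 above MA-A4. The fitted difference was 0.53 ± 0.25 in MA-A1 (limma, adjusted p = 0.235) and -0.61 ± 0.25 in MA-A3 (adjusted p = 0.118). Without the array of MA-A3 with MA-A0, PDC1 passed in MA-A3 at -1.02 (adjusted p = 0.0175).

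PDC5 encodes the other pyruvate decarboxylase of growing cells, which is known to be raised when PDC1 is lost or thiamine is short. Its ratios ran from -0.37 (MA-A3 over MA-A1) to 0.90 (MA-A4 over MA-A3), with a median of 0.27. It had its extremes in the same lines as PDC1, at 0.29 ± 0.14 in MA-A1 (limma, adjusted p = 0.248) and -0.38 ± 0.14 in MA-A3 (adjusted p = 0.0868). In MA-A3 it passed on leaving out the array of MA-A8 with MA-A3 (-0.56, adjusted p = 0.0285), that of MA-A0 with MA-A8 (adjusted p = 0.0393) or that of MA-A4 with MA-A8 (adjusted p = 0.0434). Over the 10 arrays its ratios had a Pearson correlation of 0.79 with those of PDC1. PDC6, a minor isoenzyme known from sulphur-limited cells, ranged from -0.49 (MA-A4 over MA-A3) to 0.56 (MA-A1 over MA-A0). Its fitted differences lay between -0.22 ± 0.12 in MA-A4 and 0.19 ± 0.12 in MA-A3, and its correlation with PDC1 was 0.02.

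Among the alcohol dehydrogenases, ADH1, which makes most of the ethanol in fermenting cells, varied least. Its span among the lines was 0.14, smaller than in all but 4.34% of genes (F test, adjusted p = 0.904). The span was 0.27 (adjusted p = 0.436) without the array of MA-A0 with MA-A8, with MA-A8 at 0.20 (adjusted p = 0.34) and MA-A0 at -0.13 (adjusted p = 0.472). With all 10 arrays the fitted differences ran from -0.08 in MA-A1 (95% interval -0.36 to 0.20) to 0.09 in MA-A0 (95% interval -0.19 to 0.37). Its ratios nonetheless ran from 0.18 (MA-A0 over MA-A4) to 1.11 (MA-A0 over MA-A8), with a median of 0.58, and lay above 0 on 10 of 10 arrays. The Cy5 side was brighter whichever line it held: the dye effect was 0.57 ± 0.08 (limma, adjusted p = 0.0016). GLK1 (0.34 ± 0.08, adjusted p = 0.0284) and HXK2 (0.41 ± 0.10, adjusted p = 0.0366) had a dye effect of the same sign, which makes 3 of the 9 genes against 5.08% of all genes.

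ADH2, the alcohol dehydrogenase that serves the use of ethanol once glucose is gone, ranged from -0.40 (MA-A4 over MA-A8) to 0.43 (MA-A4 over MA-A3) and did not pass (F test, adjusted p = 0.351). With the dye effect removed it was lower in MA-A3 on 4 of 4 arrays and higher in MA-A8 on 4 of 4, with fitted differences of -0.23 ± 0.12 (adjusted p = 0.246) and 0.21 ± 0.12 (adjusted p = 0.383). The difference in MA-A8 was 0.12 (adjusted p = 0.675) without the array of MA-A0 with MA-A8. ADH3, the mitochondrial form, had only a centred ratio of 0.05 for MA-A8 over MA-A1.

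ADH5, a further alcohol dehydrogenase of the ADH1 family, was highest in MA-A8. The ratio of MA-A8 over its partner was 0.88 against MA-A3, 0.46 against MA-A1, 0.45 against MA-A0 and 0.29 against MA-A4. MA-A8 was the higher on all 4 arrays, and the fitted difference was 0.52 ± 0.11 (limma, adjusted p = 0.0167). MA-A3 stood at the low end, with ratios over the partner of -0.88 against MA-A8, -0.41 against MA-A1, -0.31 against MA-A0 and 0.04 against MA-A4. Its fitted difference was -0.39 ± 0.11 (adjusted p = 0.0184). MA-A1 over MA-A4 gave 0.40, MA-A1 over MA-A0 gave 0.18 and MA-A0 over MA-A4 gave -0.10. The order was MA-A8, MA-A1, MA-A0, MA-A4, MA-A3. No neighbours passed, although the interval of MA-A8 minus MA-A1 excluded 0 before adjustment (0.31, 95% interval 0.02 to 0.60, adjusted p = 0.245). MA-A8 minus MA-A3 was 0.73 ± 0.13 (adjusted p = 0.00172) and MA-A3 minus MA-A1 was -0.42 ± 0.13 (adjusted p = 0.0482), while MA-A4 minus MA-A8 was -0.54 ± 0.13 (adjusted p = 0.051). Without the array of MA-A0 with MA-A8 the difference in MA-A8 was 0.53 (adjusted p = 0.0307). It no longer passed without the array of MA-A8 with MA-A1 (0.46, adjusted p = 0.197) or that of MA-A8 with MA-A3 (0.46, adjusted p = 0.103), nor with the lines of the array of MA-A0 with MA-A8 exchanged (0.29, adjusted p = 0.35). In MA-A3 the call was lost without the array of MA-A8 with MA-A3 (-0.33, adjusted p = 0.135), that of MA-A3 with MA-A0 (-0.33, adjusted p = 0.165) or that of MA-A3 with MA-A1 (-0.38, adjusted p = 0.114). Over the 10 arrays the ratios of ADH5 had a Pearson correlation of -0.90 with those of HXK1 and of -0.78 with those of GLK1.

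Counted by line, MA-A3 held the most calls: 4 of 9 genes, with HXK1 and GLK1 higher and HXK2 and ADH5 lower, against 17% of all genes (10.8% higher and 6.19% lower). In MA-A8, 2 of 9 passed, HXK1 lower and ADH5 higher, against 3.32% of all genes (1.31% higher and 2.01% lower). In MA-A1 only GLK1 passed, 1 of 9 and lower, against 3.8% of all genes (1.96% lower). In MA-A4 and MA-A0 limma called 0 of 9, against 3.58% of all genes in MA-A4 and 0.332% in MA-A0, with 0 genes at an unadjusted p below 0.05 in MA-A4 and 1 in MA-A0. That gene was HXK1 in MA-A0, at 0.44 ± 0.16 (adjusted p = 0.233), and without the array of MA-A0 with MA-A8 it passed at 0.68 (adjusted p = 0.0254). Without the array of MA-A8 with MA-A3, MA-A3 kept 0 of its 4 calls and PDC5 passed in their place. All 10 calls of the F test and the lines held without the array of MA-A0 with MA-A8. With the lines of that array exchanged instead, the F test called 1 of 9 genes, HXK2, against 1537 of all 5415 genes. With the lines as labelled, 1014 of all genes passed it. The calls by line with the lines exchanged were HXK2 and PDC5 in MA-A3 and HXK2 in MA-A8.

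By pair, 9 of the 90 combinations of gene and pair passed, against 6.53% over all genes. Of these, 4 fell in MA-A8 minus MA-A3 (18.2% of all genes), 3 in MA-A3 minus MA-A1 (15.1%), 1 in MA-A4 minus MA-A8 (2.18%) and 1 in MA-A0 minus MA-A8 (0.425%). HXK1 was in each of these 4 pairs. The other 6 pairs had 0 of 9 by limma, with 0 to 3 genes at an unadjusted p below 0.05 in each. Over all genes they had 11.6% (MA-A4 minus MA-A3 and MA-A3 minus MA-A0), 2.31% (MA-A1 minus MA-A4), 1.83% (MA-A1 minus MA-A0), 1.75% (MA-A0 minus MA-A4) and 0.222% (MA-A8 minus MA-A1). The pairs and the line values come from the same arrays and are not separate evidence. HXK1 and ADH5 in MA-A8 minus MA-A3 and GLK1 in MA-A3 minus MA-A1 passed whichever single array was left out. Without the array of MA-A8 with MA-A3 itself, that pair's GLK1 was at -0.24 (limma, adjusted p = 0.473) and its HXK2 at 0.46 (adjusted p = 0.326). GLK1 of that pair was also lost without the array of MA-A3 with MA-A0, and HXK2 without those of MA-A8 with MA-A4, MA-A8 with MA-A1 or MA-A3 with MA-A1. HXK1 was lost in MA-A4 minus MA-A8 and in MA-A0 minus MA-A8 without the array of MA-A1 with MA-A4, MA-A4 with MA-A8 or MA-A8 with MA-A1, and in MA-A0 minus MA-A8 also without that of MA-A1 with MA-A0. HXK1 and ADH5 in MA-A3 minus MA-A1 were lost without any of the arrays that carried MA-A1 or MA-A3 apart from that of MA-A4 with MA-A3. The number of passing combinations was 18 without the array of MA-A0 with MA-A8. Without it, 1906 of all 5415 genes passed the F test, against 1014 with it. With that array's lines exchanged, HXK1 in MA-A4 minus MA-A8 was at 0.78 (limma, adjusted p = 0.315). In MA-A8 minus MA-A3, GLK1 was then at -0.49 (adjusted p = 0.131) and ADH5 at 0.55 (adjusted p = 0.0752). In MA-A3 minus MA-A1, HXK1 (adjusted p = 0.21) and ADH5 (adjusted p = 0.153) were also lost. HXK1 and HXK2 in MA-A8 minus MA-A3 and GLK1 in MA-A3 minus MA-A1 still passed.

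The place of the genes in the genome bears on 3 of them, since the genes of whole chromosomes lay high in some lines. Chromosomes are those of the R64 assembly of the S288C genome. In MA-A3 the 427 tested genes of chromosome XIII had a median difference of 0.56, with quartiles of 0.42 and 0.69, and 360 of them passed. ADH2 lies on this chromosome, and its -0.23 in MA-A3 lay -0.78 from the chromosome's median, where 13 of the 427 genes (3.04%) lay at or below it. ADH2 was thus among the lowest genes of a chromosome whose genes were mostly higher in this line. In MA-A1 the 445 genes of chromosome XII had a median of 0.26 and 71 of them passed. PDC1 and PDC5 both lie there: PDC5, at 0.29, was 0.04 from the median, with 58.9% of the chromosome's genes at or below it, and PDC1, at 0.53, was 0.28 from it, with 96.9% at or below. In MA-A3, where chromosome XII had a median of -0.09, 2.47% of its genes lay at or below PDC1 and 9.89% at or below PDC5.

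**Figure D3:**
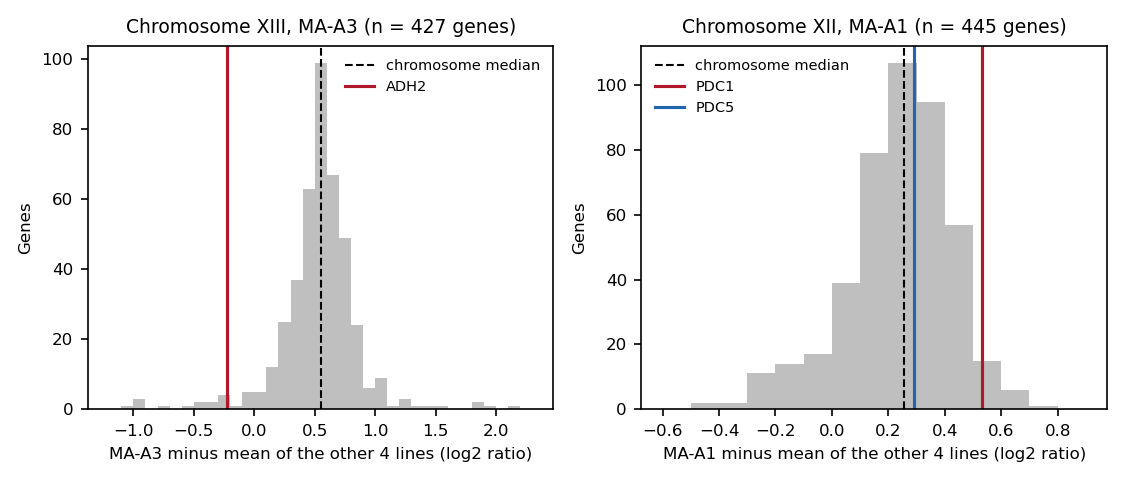
Distribution over genes (y axis, number of genes) of the line minus the mean of the other 4 (x axis, log2 ratio) on chromosome XIII in MA-A3 (427 genes) and on chromosome XII in MA-A1 (445 genes), with dashed lines at the chromosome medians, 0.56 and 0.26. ADH2 (-0.23) lies in the low tail of its chromosome, PDC5 (0.29) close to the median of chromosome XII and PDC1 (0.53) in its upper tail.

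The chromosomes of HXK1 (VI), HXK2 (VII), GLK1 (III) and ADH5 (II) had medians close to 0 in MA-A3 and MA-A8, between -0.03 and 0.01. On chromosome VI, 2 of 123 genes lay at or below HXK1 in MA-A8, itself included. On chromosome II, 383 of 384 genes lay at or below ADH5 in MA-A8. Taken against their own chromosome's median, the differences in MA-A8 were -1.04 for HXK1 and 0.55 for ADH5, close to the -1.06 and 0.52 given above.

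Other genes of the same pathway were set beside these. Their counts are set beside all genes tested, of which 18.7% passed the F test. In MA-A3 10.8% of all genes were higher and 6.19% lower, and in MA-A8 1.31% were higher and 2.01% lower. The lists were chosen with earlier results of these data known, so this comparison is a description and not a test of enrichment. Of 14 other glycolysis enzymes, all tested, 3 differed among the lines, and in MA-A3 6 were lower and 0 higher, with a median of -0.52 against -0.0025 for all genes. Among these, GPM1 (phosphoglycerate mutase) stood at -0.77 ± 0.16, ENO1 (enolase) at -0.52 ± 0.11 and PFK1 (a phosphofructokinase subunit) at -0.34 ± 0.09 in MA-A3. HXK2, PDC1 and PDC5 had values of that sign and size in MA-A3, and HXK1 and GLK1 of the opposite sign. In MA-A8 the median of the list was 0.28, with 0 of 14 passing by limma.

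Among the genes that bring sugar in, the calls had the direction of HXK1 in both MA-A3 and MA-A8. Of 13 hexose transporters and glucose sensors, 4 differed among the lines. In MA-A3, 6 were higher and 0 lower (median 0.27), and in MA-A8 2 were lower and 0 higher (median -0.20). HXT2, a high-affinity transporter, was at 1.09 ± 0.13 in MA-A3 and -0.86 ± 0.13 in MA-A8, and HXT1, a low-affinity transporter, at 0.42 ± 0.13 and -0.69 ± 0.13 in the same lines. HXT7 stood at 0.51 ± 0.10 in MA-A3 and passed there, while in MA-A8 it was at -0.29 ± 0.10 (adjusted p = 0.127). HXT2 lies on chromosome XIII, and its value in MA-A3 is above that chromosome's median.

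Of 13 genes for acetaldehyde, acetate and other alcohol dehydrogenases, 5 differed among the lines and 3 were higher in MA-A3 (median 0.22). ALD3, an aldehyde dehydrogenase on chromosome XIII, stood at 1.44 ± 0.11 and BDH2, a relative of butanediol dehydrogenase, at 0.89 ± 0.10, while ALD5 was at 0.01 ± 0.12 in MA-A3 and passed in MA-A1 at 0.48 ± 0.12. The remaining one of the 3, ADH6 (0.62 ± 0.12, named after its value was seen), lies on chromosome XIII like ALD3, and 360 of the 427 genes there passed in MA-A3. Of 8 genes of the glycerol branch, 7 were tested, 2 differed among the lines and 3 were higher in MA-A3 (median 0.19), among them GPD1, which makes glycerol 3-phosphate, at 0.53 ± 0.12, and GUT2 at 0.44 ± 0.13. DAK1, on chromosome XIII, stood at 0.53 ± 0.13, close to that chromosome's median.

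Of 18 regulators of these genes, 2 differed among the lines, 3 were higher in MA-A3 and 2 lower in MA-A8. HAP4, an activator of respiratory genes, was at 0.92 ± 0.15 in MA-A3 and -0.69 ± 0.15 in MA-A8, and MSN2, a stress-response activator on chromosome XIII, at 0.81 ± 0.11 and -0.47 ± 0.11 in the same lines. CAT8, also on chromosome XIII, was at 0.43 ± 0.13 in MA-A3. HAP4 lies on chromosome XI, as does GPM1, and GUT2 lies on chromosome IX. The genes of IX and XI were left out, with those of XII and XIII, in an alternative centring. The medians of IX and XI are not given here. Of 12 other genes of carbon metabolism that glucose represses, 10 were tested and 0 passed the F test or any line by limma, with medians of 0.06 in MA-A3 and -0.04 in MA-A8. The smallest p among them belonged to FBP1, PCK1 and CAT2, at -0.04 ± 0.11, 0.21 ± 0.14 and 0.28 ± 0.10 in MA-A3. They lie on chromosomes XII, XI and XIII, in that order. Over all genes, 18.7% passed the F test and 17% passed in MA-A3, so a count of 0 among 10 genes says little. Of 18 relatives of pyruvate decarboxylase and genes of thiamine synthesis, 6 differed among the lines. In MA-A8, 4 were higher, in MA-A1 2 were higher, and 3 were lower in each of MA-A3 and MA-A4. The 3 lower in MA-A4 were all among the 4 higher in MA-A8, so these counts are not of separate genes. ARO10, a decarboxylase of amino-acid breakdown, was at -1.04 ± 0.12 in MA-A3 and 0.56 ± 0.12 in MA-A8. Its lowest and highest lines were those of ADH5. SNZ3 was at 0.56 ± 0.09 in MA-A8 and -0.65 ± 0.09 in MA-A4, and THI7, a thiamine transporter on chromosome XII, at 0.61 ± 0.10 in MA-A1 and -0.50 ± 0.10 in MA-A3.

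**Figure D4:**
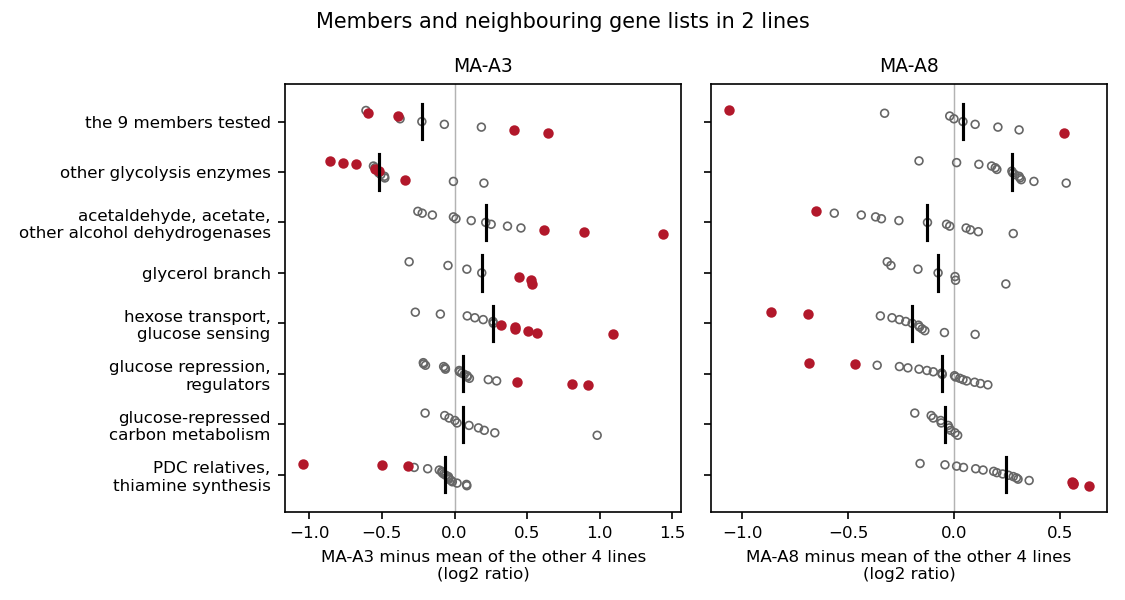
Line minus the mean of the other 4 (x axis, log2 ratio) in MA-A3 and in MA-A8 for the 9 genes tested and for the tested genes of 7 lists of the same pathway (rows). Filled red points passed at an adjusted p below 0.05, open points did not, and black bars are medians. The lists were chosen with earlier results of these data known. In MA-A3 the other glycolysis enzymes had a median of -0.52 and the hexose transporters one of 0.27, and in MA-A8 these medians were 0.28 and -0.20.

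The genes whose ratios were most like those of 1 gene of each family were found by Pearson correlation over the 10 arrays among 5122 genes. For HXK1 they were MSS51 (0.96), VID24 (0.95) and GSY1 (0.94). For PDC5 they were ATP8 (0.94), RPS30A (0.92) and GSP2 (0.91), and for ADH5 they were IMA3 (0.95), GPM3 (0.94) and SDH9 (0.93). The arrays share lines, and a correlation picked as the highest of so many genes is high by that choice. Of the 9 genes named, GSY1, VID24 and IMA3 differed among the lines in the F test.

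Several of these enzymes have close relatives in sequence, above all PDC1 with PDC5, ADH1 with ADH2 and ADH5, and HXK1 with HXK2. How far a spot also took up the labelled copy of a relative was not tested, for these genes or for those of the lists. The sources used here give no probe sequences.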

How the data were processed

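Per the labels, RNA of 2 lines was labelled with Cy5 and Cy3 through a dendrimer kit (Genisphere 3DNA) and hybridised to 10 arrays. The table deposited by the authors holds 1 value per probe row and array, positive and negative, read here as a log2 ratio of Cy5 to Cy3. Its base and direction are not stated. How the arrays were scanned, filtered and normalized is not given in the sources used here. Of 7744 rows, 6282 to 6824 had a value on an array. Array medians ran from -0.84 to 0.41, so each array was centred on its median. No spot intensities were used, so signal over background is unknown, and the number of arrays limits the precision.

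Genes were named from the platform annotation (6116 rows with 1 gene name, 6111 matched by gene ID to R64), rows of a gene were averaged, and genes with values on at least 8 of the 10 arrays were tested. A linear model per gene held each array's pair of lines (Cy5 counted +1, Cy3 counted -1) and an intercept for dye (limma 3.58.1 in R 4.3.3). It left 5 residual degrees of freedom, with variances moderated by a prior worth 9.19. Limma's moderated F test was used for the lines together and its moderated test for each line and each pair, with Benjamini-Hochberg adjustment over all genes of a comparison. The code was checked on simulated data. Alternatives were the deposited values without centring, no dye effect, a robust or no prior, genes on all arrays and row medians. Others were centring on genes outside chromosomes IX, XI, XII and XIII, the lines of 1 array exchanged, and each array left out.

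The genes described and the lists beside them were chosen with earlier results of these data known. All members are named, with at most 3 genes of a list, those with the smallest p of the F test, and the 3 genes most like 1 gene of each family. ADH6 is an exception, named in addition to the 3 of its list after its value was seen.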

Additional observations from a re-analysis of the deposited data

Results flagged for a closer look

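GLK1 in MA-A0 had 1 array far from the other 3 of that line. Each array gives an estimate of the MA-A0 value relative to the average of the other 4 lines, and for GLK1 the array with MA-A4 gave 0.595, while the arrays with the other lines gave 0.045 to 0.11. The gap to the nearest of them was 0.88 of the whole range, above Dixon's 95% limit for 4 values. Such a gap turned up in 1 of the 45 combinations of gene and line examined, and chance alone gives about 1 in 20. The arrays of 2 lines enter the values of both, so these combinations are not independent. GLK1 in MA-A0 did not pass (0.20 ± 0.13, limma, adjusted p = 0.459).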

How the results depend on the processing

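Over 19 alternatives, 10 of them leaving out 1 array, no call on a gene changed direction. Of the 10 calls, HXK1 among the lines and in MA-A8 held in 16, and GLK1 in MA-A3 and in MA-A1 held in 8 and 9. The main counts were 3 of 9 genes among the lines, 1 in MA-A1, 4 in MA-A3, 2 in MA-A8, 0 in MA-A0 and MA-A4, and 9 combinations of gene and pair. Without centring these were 1 among the lines, 0 in MA-A1, 0 in MA-A3, 1 in MA-A8 and 2 combinations. Without the dye effect they were 2 among the lines, 0 in MA-A1, 2 in MA-A3 and 2 combinations. Without moderation of the variances they were 0 among the lines, 0 in each line and 1 combination, and all genes passing the F test numbered 62 against 1014. With the lines of the array of MA-A0 with MA-A8 exchanged they were 1 among the lines, 0 in MA-A1, 2 in MA-A3 and 1 in MA-A8. With that array's value turned together with its dye effect, an alternative chosen after seeing the data, they were 1, 0, 1 and 1, with 5 combinations. In these alternatives, in that order, all genes passing the F test numbered 1537 and 1276, against 1014. With single arrays left out, the counts ran from 2 to 4 among the lines, 0 to 1 in MA-A0, 0 to 1 in MA-A1, 1 to 5 in MA-A3, 0 to 0 in MA-A4, 1 to 3 in MA-A8 and 4 to 18 combinations. All genes passing the F test then numbered 591 to 1906, the most without the array of MA-A0 with MA-A8. They numbered 145 without centring and 580 without the dye effect. The cause of these changes was not tested. No paired analysis was possible because each array is itself a pair of lines, no pair was hybridised more than once and the labels carry no replicate numbers.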
